A study of Bos taurus and Cervus elaphus with 24 samples.

Results

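Blood transcripts of deer and of cattle were compared for how they differ between the dry period and peak lactation, and for whether the difference runs in opposite or like directions in the 2 kinds of animal. For each probe, the lactation effect was the mean log2 ratio at peak lactation minus the mean log2 ratio in the dry period. The cattle effect was the mean of the effects in the 2 breeds, and the difference of effects was the deer effect minus the cattle effect. Arrays were chosen by the breed or species and the physiological state given in the labels, which took all 24 of 24 arrays, 8 from deer and 16 from cattle.

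The 6 groups of 4 arrays were Holstein Friesian cattle (HF), a high-yielding dairy breed, Polish Red cattle (PR), a local breed, and deer labelled Cervus elaphus, the red deer, with 1 group for the dry period and 1 for peak lactation in every case. Blood came from 4 Holstein Friesian, 4 Polish Red and 4 deer, and each gave a sample in either state, so 12 animals gave 24 samples. None of the groups carried an allele or a treatment, and age, housing, season and day of lactation are not given in the sources used here. The animal's RNA was in the Cy5 channel, and the Cy3 channel of all arrays held a common reference from 20 cattle outside the groups. The sample is labelled peripheral blood nuclear cells, taken from whole blood in tubes that fix RNA. All probes are of cattle sequence, and how well the deer transcript matches each probe was not examined. Levels were therefore compared between states and not between deer and cattle.

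Lactation draws on glucose, fatty acids, cholesterol and calcium for milk, and early in lactation dairy cows take in less energy than they give off in milk. Blood carries white cells whose make-up is known to vary with reproductive state, stress hormones and infection of the udder. Neutrophils are short-lived phagocytes that enter the udder against bacteria, monocytes give rise to macrophages, and ruminants have many gamma delta T cells in their blood. In bulk blood RNA, fewer cells of a type and less RNA of a gene per cell cannot be told apart.

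The median Cy5 spot intensity was 109 to 255 on 23 arrays and 2038 on the array of PR animal 1 in the dry period, which also had 703 outlier spots. The correlation of observed with expected spike-in signals was 0.37 and 0.17 for HF animal 2 and 0.40 and 0.29 for HF animal 3 (dry period, then peak lactation). It was 0.33 on the dry array of PR animal 1 and 0.899 to 0.997 on all other arrays. The SD of the log2 ratios over probes was 0.80 to 0.85 on 6 deer arrays but 0.52 and 0.66 on those of deer 2 and deer 4 at peak lactation. Cattle arrays had an SD of 0.19 to 0.47. Over probes, deer arrays correlated with each other at 0.88 to 0.97 and with cattle arrays at -0.05 to 0.26. The dry samples of deer 1, 2 and 4 shared a slide, the lactation samples of deer 2 and 3 shared another, and the remaining 3 deer samples (deer 3 in the dry period, deer 1 and 4 at peak lactation) shared the slide on which both states stand together. A value within that slide sets 1 dry sample against 2 lactation samples of other deer and is given with no test. State and slide can therefore be told apart in deer only in part. HF arrays of an animal shared a slide. All HF dry arrays stood at position 1 of their slide and all HF lactation arrays at position 3 or 4. Among PR, the dry arrays of animals 1, 3 and 4 stood at position 1 and no lactation array did. State and array position cannot be told apart within HF, and only in part within PR. With array position in the model no probe passed for the cattle effect. The probes of the lists for neutrophils, monocytes, T cells and B cells were for the most part well above background in both deer and cattle, for example 31 to 32 of 35 neutrophil genes in each of the 6 groups.

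Of 31436 probes tested, none passed an adjusted p of 0.05 for the difference of effects by limma (0%, smallest adjusted p 0.135). At an unadjusted p under 0.05 the deer effect was above the cattle effect for 1335 probes (4.25%) and below it for 1261 (4.01%). In a model with the animal as a block, which pairs the 2 samples of an animal, 2 probes passed (0.00636%), both with a deer effect below the cattle effect. The count also depends on how arrays are weighted: with array quality weights 1852 probes passed, 1149 above and 703 below, where the weights ran from 0.14 for PR animal 1 in the dry period to 4.28 for deer 4 at peak lactation. Without deer 3 at peak lactation 10 probes passed, without deer 3 in the dry period 4, and without deer 2 in the dry period or without deer 1 at peak lactation 1 each.

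With each gene taken by its brightest probe, 12776 genes were tested. The deer effect and the mean cattle effect had opposite signs for 44.2% of them. That share was 50.1% without the dry array of PR animal 1 and 50.4% after scaling between arrays, so an excess of like signs depends on these choices. The deer effect was above 0 and both breeds below 0 for 1529 genes, and the reverse held for 1648. All 3 effects were above 0 for 2281 genes and below 0 for 1622, while the 2 breeds had opposite signs for 5696. Among the 96 of 12776 genes with an unadjusted p under 0.05 in both deer and cattle, 57 had like signs (51 above 0 and 6 below) and 39 had opposite signs (20 with deer above 0 and 19 with deer below). The 39 are 40.6% of the 96, near the 44.2% with opposite signs over all genes. By limma 2847 of 31436 probes had such a p in deer and 2883 in cattle. Whether 96 exceeds the overlap of unrelated effects was not tested. Across genes, the deer effect correlated with the cattle effect at r = 0.03 (Spearman 0.10, n = 12776 genes), with the HF effect at -0.14 and with the PR effect at 0.22. The HF and PR effects correlated at 0.31. These correlations describe genes measured on the same arrays against the same reference and are not independent points.

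**Figure D1:**
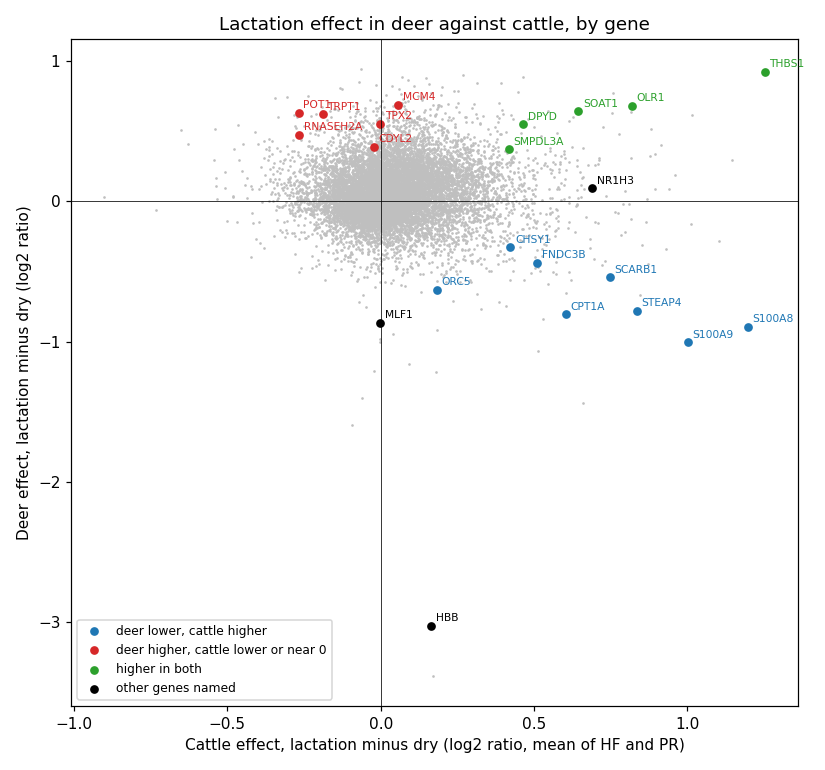
Lactation effect in deer (vertical, log2 ratio) against the mean effect in both cattle breeds (horizontal, log2 ratio), each point being 1 of 12776 genes and named genes coloured by direction. S100A9, S100A8 and STEAP4 lie at lower right (deer lower, cattle higher) and SOAT1, OLR1 and DPYD at upper right (higher in both), although scaling between arrays puts the deer effects of SOAT1, OLR1, DPYD and THBS1 below 0.

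The probes that passed for the deer effect all fell at peak lactation, and the first of them lies in the beta-globin cluster, the genes of the oxygen-carrying chains of haemoglobin. In the model without the block, 2 probes passed in deer (0.00636%), and with the block 4 passed (0.0127%). Sequences are shown for some of the transcripts that carry these and the following results. They are the first 30 bases of the 60-base probes as printed in the array files, 5′ to 3′ on the probe strand and in lower case because no base is singled out.
MLF1, chr1:109763324-109763383, minus strand: aacatggaagaagatcaaatgtttttgtgg
NR1H3, chr15:78330145-78330204, plus strand: tcctagaggtggagccagatgaaggacaaa
S100A9, chr3:17176551-17176610, minus strand: tgctatcaatgagatcatggaggatctgga
STEAP4, chr4:72833506-72833565, minus strand: atccgccagggttgggaaaggaacccgaaa
CPT1A, chr29:46824212-46824271, minus strand: tcgtacattctcgtcggtgaggacctcatc
TPX2, chr13:61885698-61885757, plus strand: agcctctgtatcagcgcagtgtaatttcta
SOAT1, chr16:62128300-62128359, plus strand: ggcttagaaattttttcatgcacactattg
Positions are on the UMD 3.1 cattle assembly, as in the files. Whether they are in an exon or an untranslated region was not determined, since no annotation of that assembly was used here.

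The globin cluster probe has no gene name in the files. Its log2 ratios in deer 1 to 4 were 6.36, 4.06, 3.62 and 4.64 in the dry period and 2.77, 0.73, 1.38 and 0.18 at peak lactation. In cattle the same probe ran from -0.24 to 0.47 in the dry period and from -0.30 to 0.22 at peak lactation. All 4 dry deer samples were above all 4 lactation samples, and the cattle values were near the reference in both states. In cattle the probe was well above background on 4 dry and 3 lactating HF arrays and on 2 PR arrays in either state. Values near 0 at so low a signal cannot show whether cattle respond. The deer effect was -3.40 (SE 0.45, n = 4 and 4, limma adjusted p = 0.00629), and the cattle effect was -0.19. Deer minus cattle, the effects differed by -3.22 (SE 0.56), with an adjusted p of 0.139 and, with the animal block, of 0.0050. Without deer 2 at peak lactation no probe passed for the deer effect.

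Adult beta-globin itself was as far below its dry level in deer, but its spread between animals was large. HBB had log2 ratios of 0.57, -2.37, -0.26 and -1.81 in the dry deer and -3.38, -3.63, -4.49 and -4.47 in the lactating deer. The deer groups did not overlap, while the HF and PR values overlapped between states, with effects of 0.88 in HF and -0.55 in PR. For HBB the difference of effects was -3.19 (95% interval -5.67 to -0.70, adjusted p = 0.573 by limma). The 3 probes for HBG, the fetal chain, had deer effects of -3.38, -2.29 and 0.06, so they disagree. HBE2, HBE1 and HBE4, the embryonic chains, had deer effects of -0.05, -0.15 and 0.43, and HBE4 had effects of 0.59 in HF and -0.22 in PR. Over the whole erythroid list, 25 of 36 genes had a deer effect below 0 (median -0.07) against 16 of 36 in cattle (median 0.03). Blood drawn with red cells carries globin RNA, and the share of red cell RNA in each sample was not tested.

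The other deer probe that passed without the block is of an unnamed transcript (TC436754, chr7:45230228-45230287). Its log2 ratios were -0.50, -0.997, -0.90 and -0.39 in the dry deer and -1.54, -1.31, -1.34 and -1.70 in the lactating deer, with no overlap. The deer effect was -0.78 (SE 0.12, limma adjusted p = 0.0464), against 0.40 in HF and -0.10 in PR. It did not pass with the animal block (adjusted p = 0.296), nor for the difference of effects, where its adjusted p of 0.135 was the smallest of all probes.

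MLF1, which takes part in the development of blood cells, passed with the block and is named for that, after its values were seen. The probe whose sequence is shown had log2 ratios of 2.35, 1.61, 2.80 and 2.01 in the dry deer and 1.41, 0.37, 1.72 and 0.63 in the lactating deer. Each deer was lower at peak lactation, although dry deer 2 overlapped lactating deer 3. Cattle values lay between -0.17 and 0.28 in all 4 cattle groups. There the probe was well above background on 2 arrays of either HF group and 3 of either PR group, so a response in cattle could be missed. The deer effect was -1.16 (SE 0.23) and the difference of effects -1.13 (SE 0.28), with limma adjusted p-values of 0.183 and 0.502, and of 0.000731 and 0.0105 with the animal block. A brighter probe for MLF1 gave a difference of -0.86, which became -0.36 after scaling between arrays and -0.40 without deer 2 and 4 at peak lactation. AVIL, an actin-binding protein of the villin family that also passed in deer with the block (adjusted p = 0.0183), had a deer effect of -0.98, an HF effect of 0.01 and a PR effect of -0.02. Its difference of effects ran from -1.62 to -0.10 over the processing settings.

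In cattle the gene that rose was NR1H3, the liver X receptor alpha, a sensor of cholesterol derivatives that is active in macrophages. Its log2 ratios were -1.09, -1.07, -1.32 and -0.99 in dry HF and 0.06, -0.15, 0.14 and -0.40 in lactating HF. In PR they were -0.95, -0.60, -0.61 and -0.30 in the dry period and -0.30, -0.27, -0.25 and -0.25 at peak lactation. Deer values were 0.67, 0.54, 0.34 and 0.58 in the dry period and 0.54, 0.88, 0.34 and 0.74 at peak lactation, which overlap. The cattle effect was 0.69 (limma adjusted p = 0.00986), the only probe of the cattle effect to pass (0.00318%), made of 1.03 in HF and 0.35 in PR. NR1H3 did not pass with median centring, scaling between arrays, array position or Cy5 alone, nor without HF animals 2 and 3. The deer effect was 0.09, and the difference of effects was -0.60 (95% interval -0.94 to -0.26), which did not pass (adjusted p = 0.527).

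With the animal block 27 probes passed for the cattle effect (0.0859%), 14 higher and 13 lower, and their deer effects ran from -0.23 to 0.92. Of the 13 that fell in cattle, 5 were probes of CD163L1 and 1 of WC1.3, which encode WC1 scavenger receptors carried by gamma delta T cells of ruminants. The CD163L1 probe with the highest signal had a cattle effect of -0.90 (HF -1.08, PR -0.72) and a deer effect of 0.03. Among the probes that rose in cattle with the block were LYZ, a lysozyme, with 0.60 and THBS1, the matrix protein thrombospondin 1, with 1.25. Their deer effects were 0.02 and 0.92. GPR183, a receptor that guides lymphocytes, fell in cattle by 0.33 and had a deer effect of -0.07. LYZ, THBS1 and GPR183 were named after their values were seen.

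**Figure D2:**
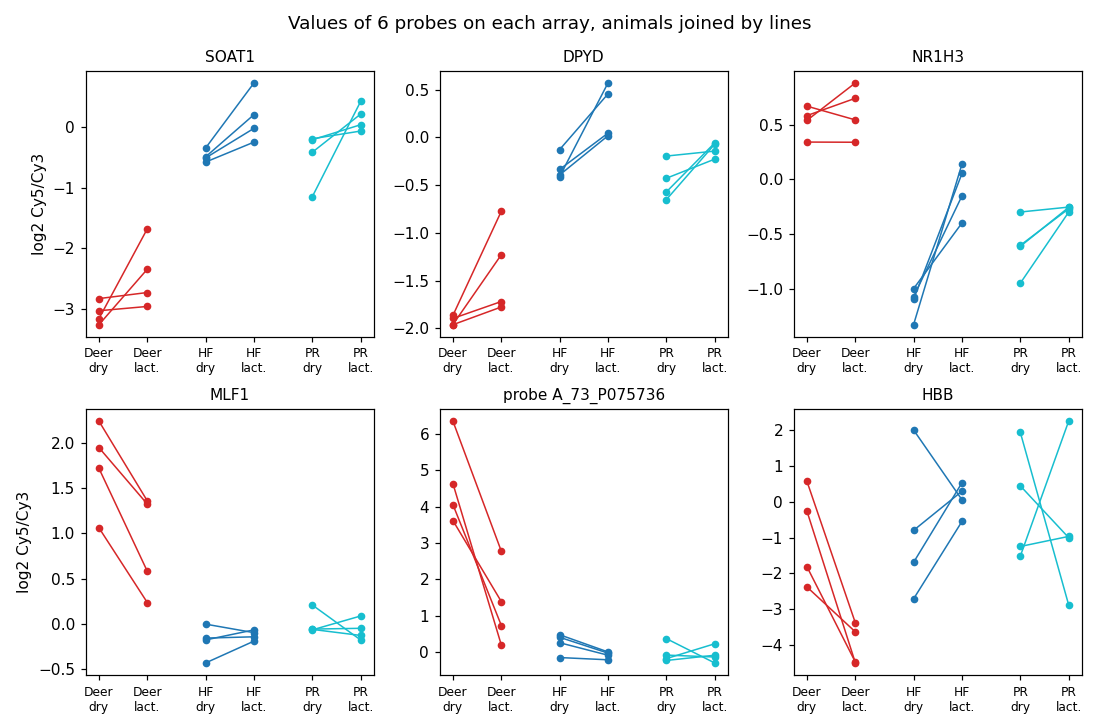
Log2 ratio of Cy5 over Cy3 on each array for 6 probes, with deer in red, HF in blue and PR in cyan and a line joining the dry and lactation samples of an animal. The globin cluster probe falls from between 3.62 and 6.36 to between 0.18 and 2.77 in deer, and NR1H3 rises in all 8 cattle; the MLF1 panel shows its brightest probe, and SOAT1 and DPYD have deer effects above 0 that turn below 0 after scaling between arrays.

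The genes with the most opposite responses, lower in deer and higher in both breeds at peak lactation, included S100A9, S100A8 and S100A12, calcium-binding proteins abundant in neutrophils. None of them passed an adjusted p of 0.05 for the difference of effects, so the values that follow describe these animals. S100A9, which forms the antimicrobial complex calprotectin with S100A8, had log2 ratios of -0.41, -0.63, -0.29 and 0.50 in the dry deer and -0.66, -1.34, -0.55 and -2.31 in the lactating deer. In HF it had -1.47, -1.92, -0.84 and -1.02 in the dry period and -0.66, 0.92, 0.65 and -0.55 at peak lactation. The 0.92 and 0.65 are from HF animals 2 and 3, whose arrays had low spike-in correlations. In PR S100A9 had -1.97, -0.82, -1.16 and -0.85 in the dry period and -0.08, -0.55, -0.90 and -0.87 at peak lactation. The HF groups did not overlap, and the deer and PR groups did. It was lower in 4 of 4 deer and higher in 4 of 4 HF and 3 of 4 PR, and the highest deer change (-0.25) was below the lowest cattle change (-0.02).

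For S100A9 the difference of effects was -2.01 (SE 0.49, 95% interval -3.02 to -0.996, adjusted p = 0.502 by limma), from a deer effect of -1.01 and a cattle effect of 1.00. The changes of the 4 deer were -0.25, -0.70, -0.26 and -2.81, so deer 4 holds the most of it. S100A8 had a difference of -2.09 and S100A12, an inflammatory calcium-binding protein of the same cluster on chromosome 3, of -1.98. Without deer 2 and 4 at peak lactation the differences of S100A9, S100A8 and S100A12 were -1.40, -1.39 and -1.18. The 3 probes of S100A12 had deer effects of -0.94, -0.80 and -0.04 and cattle effects of 1.04, 0.95 and 0.97. The common reference in Cy3 itself had a difference of 0.69 for S100A12, and the Cy5 signal alone gave -1.56. Within the slide that held deer samples of both states, the deer effect of S100A9 was -1.20, from 1 dry and 2 lactation arrays. The deer effect changed sign there for several genes, among them VCAN (0.53), SOD2 (0.13), FOXO3 (0.07), PEX10 (-0.25), SCAP (-0.04), EBF1 (-0.06), CD163L1 (-0.53) and THBS1 (-1.01).

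STEAP4, a metalloreductase induced in inflammation, had the smallest unadjusted p among the genes of opposite sign in this direction. Its log2 ratios were -0.65, -0.82, -0.91 and 0.13 in the dry deer and -1.83, -0.73, -1.13 and -1.71 in the lactating deer. HF had -0.88, -1.28, -0.91 and -1.17 in the dry period and -0.18, 0.18, 0.81 and -0.36 at peak lactation, and PR had -0.31, -0.66, 0.42 and 0.15 and then 0.47, 0.57, 0.07 and 0.48. It was higher in all 4 HF with no overlap, and 3 of 4 deer were lower. Its difference of effects was -1.62 (SE 0.34, adjusted p = 0.417).

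SCARB1, the receptor that takes up cholesterol from high-density lipoprotein, was lower at peak lactation in 4 of 4 deer and higher in 8 of 8 cattle. Its changes were -0.09, -0.13, -0.54 and -1.40 in deer, 0.45, 1.51, 0.47 and 0.64 in HF, and 1.76, 0.56, 0.05 and 0.53 in PR. The deer and cattle changes did not overlap, and the largest cattle change was that of PR animal 1. The difference of effects was -1.29 (SE 0.33, adjusted p = 0.502). ORC5, a subunit of the complex that marks replication origins, had the same pattern of signs, with changes of -0.15 to -1.37 in deer and 0.03 to 0.45 in cattle. Its difference was -0.81, but of its 3 probes a nearly as bright one had a deer effect of 0.28 and a difference of 0.25. For that probe the authors' deposited table for deer gives 0.50. Of 12599 genes measured in all 12 animals, 6 were lower in all deer and higher in all cattle, 7 were the reverse, 33 were higher in all 12 and 9 lower in all 12.

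Others of the 12 most opposite genes in this direction have roles in cell shape, signalling and lipid use. FNDC3B, an adaptor protein, had a difference of -0.95 with all 5 of its probes below 0, and CHSY1, an enzyme that builds chondroitin, of -0.75 with all 5 below 0. PREX1, an exchange factor for Rac in neutrophils, had -0.71 with all 4 probes below 0. FCHO2, which starts clathrin-coated pits, had -0.93. ACSL6, which activates long fatty acids, had -0.86, made of a deer effect of -0.15 and a cattle effect of 0.71. CNR1, a cannabinoid receptor, had -0.57, and IVNS1ABP, an actin-binding protein, had -0.84, but the sign turned to 0.076 for CNR1 with the scanner's own log ratio and to 0.26 for IVNS1ABP after scaling between arrays.

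**Figure D3:**
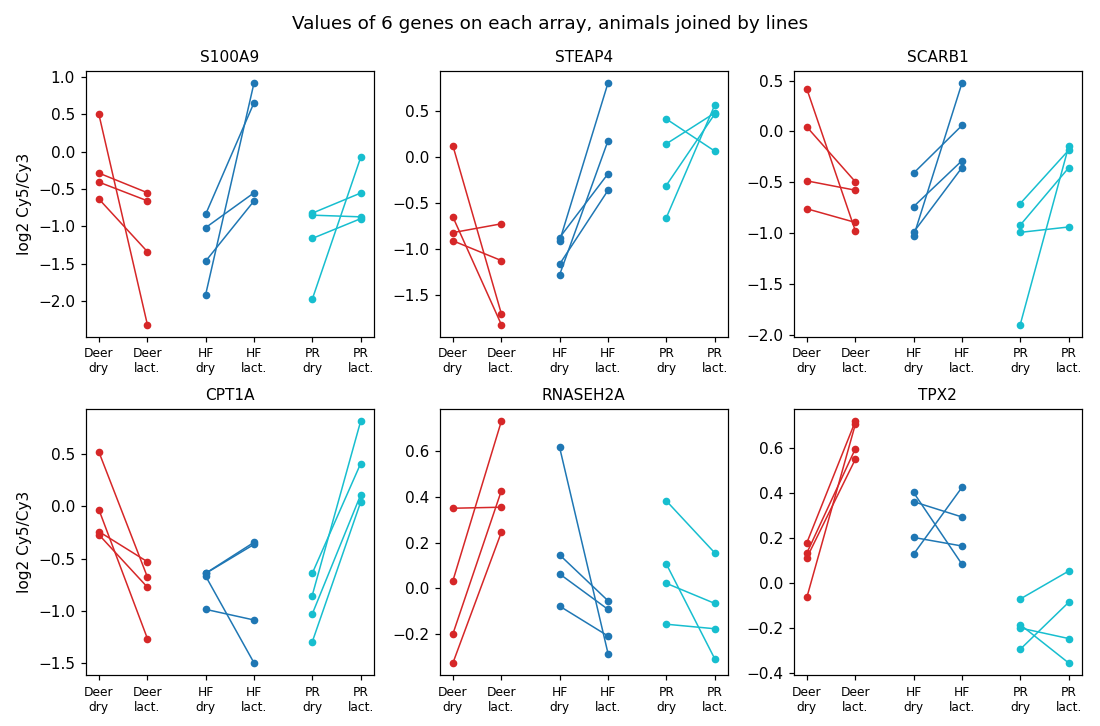
Log2 ratio of Cy5 over Cy3 on each array for 6 genes, with deer in red, HF in blue and PR in cyan and a line joining the dry and lactation samples of an animal. The deer means of S100A9, STEAP4, SCARB1 and CPT1A are lower at peak lactation and the PR means higher, while RNASEH2A is higher in 4 of 4 deer and lower in 8 of 8 cattle and TPX2 is higher in 4 of 4 deer.

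The neutrophil list as a whole had opposite signs. Of 31 genes tested, 24 had a deer effect below 0 (median -0.18), and 30 had a cattle effect above 0 (medians 0.66 in HF and 0.18 in PR). The difference of effects was below 0 for 28 of 31 (median -0.52), and it had an unadjusted p under 0.05 below 0 for 11 and above 0 for 1, with none passing the adjusted threshold. Over all 12776 genes the median difference was 0.01, 47.4% were below 0 and 8.42% had an unadjusted p under 0.05. The mean change of the list was -0.16, 0.00148, -0.05 and -0.73 in deer 1 to 4, 0.20, 0.97, 1.24 and 0.19 in HF and 0.77, 0.22, -0.02 and -0.05 in PR. Deer and PR animals overlapped, and the deer mean leans on deer 4. Without that animal's lactation array the median deer effect was -0.10 and the median difference -0.51, and without HF animals 2 and 3, whose arrays had low spike-in correlations, the median difference was -0.23. The PR median of 0.18 was 0.06 without the dry array of PR animal 1 and 0.03 with array weights. Within the slide that held both deer states, 18 of 31 genes were lower in lactation, with a median of -0.03.

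The monocyte and macrophage list differed mainly in cattle. The cattle effect was above 0 for 21 of 23 genes (medians 0.57 in HF and 0.31 in PR), while the deer effect was above 0 for 12 and below 0 for 11 (median 0.01). The difference was below 0 for 19 (median -0.42). The mean change of the list was -0.10, 0.10, 0.13 and -0.18 in deer 1 to 4 and 0.14 to 0.79 in the 8 cattle, with no overlap between deer and cattle. The gap was narrow, between 0.126 in deer 3 and 0.138 in PR animal 3. PR animal 1, whose dry array had 703 outlier spots, had 0.77. Within the slide that held both deer states, 15 of 23 genes were higher in lactation, with a median of 0.14. VCAN, a large proteoglycan made by monocytes, had a difference of -1.18, with a cattle effect of 0.72 and a deer effect of -0.45, but of -0.43 after scaling between arrays and -0.10 with the slide as a block. TLR4, the receptor for bacterial lipopolysaccharide, had a difference of -0.97 and a deer effect of -0.47. NR1H3, described above, also belongs to this list.

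**Figure D4:**
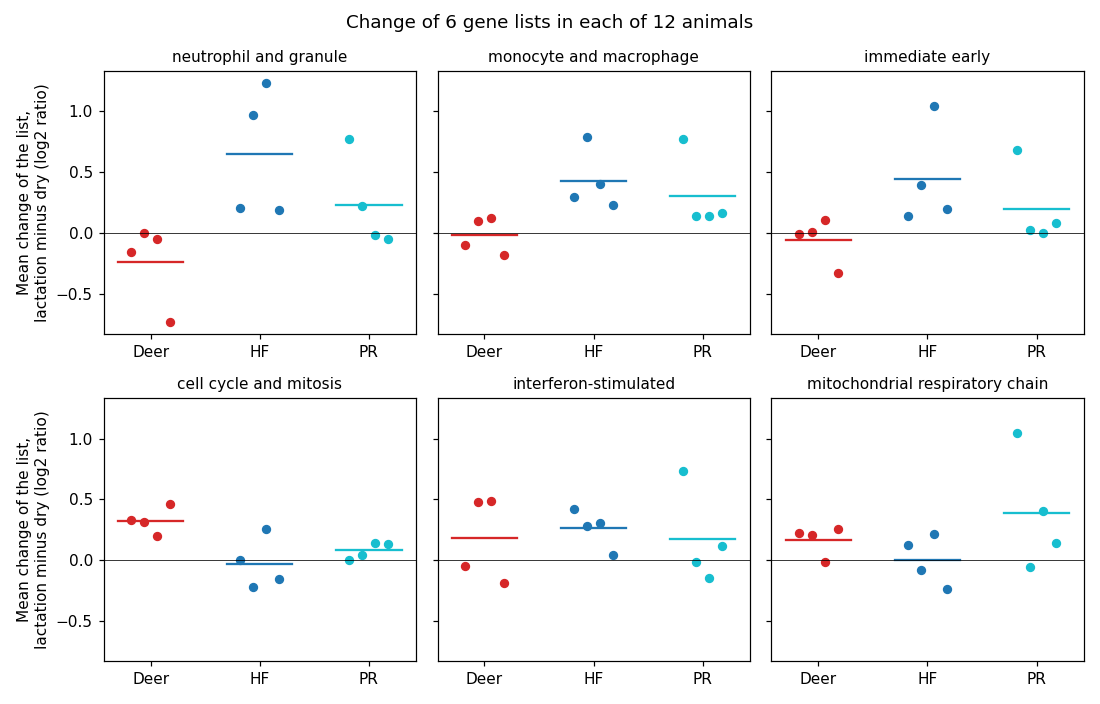
Mean change from dry period to peak lactation (log2 ratio) over the genes of 6 lists, with 1 point for each of 12 animals and a bar at the mean of each group of 4. In the neutrophil and monocyte panels the deer points lie from -0.73 to 0.13 and HF from 0.19 to 1.24, the cell cycle panel has all 4 deer at 0.20 or above, and interferon-stimulated genes have 2 deer above 0 and 2 below, where scaling between arrays puts the deer median below 0.

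Lists of the innate immune response also had cattle effects mostly above 0. In the pattern recognition receptor list the cattle effect was above 0 for 30 of 36 genes and the deer effect for 18 of 36, and the median difference was -0.20. CLEC7A, a receptor for fungal glucans, had a difference of -0.99, with a sign that turned to 0.30 after scaling between arrays, and TREM1, which amplifies neutrophil activation, of -0.74. In the complement list CFP, properdin, had a cattle effect of 0.61 and a deer effect of -0.19, and C5AR1, the receptor for the complement fragment C5a, had 0.52 and -0.26, with a difference that turned to 0.49 after scaling. TYROBP, a signalling adaptor of myeloid and NK cells, had 0.57 and -0.21. PTX3, a soluble pattern recognition protein stored in neutrophils, had a deer effect of -1.40, an HF effect of 0.55 and a PR effect of -0.67, from 23 arrays. LYZ1, a lysozyme, had a difference of -1.13. TNFSF9, a costimulatory ligand, was 0.89 in cattle and 0.09 in deer.

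Immediate early genes, transcription factors switched on within minutes of a stimulus, had a cattle effect above 0 in 26 of 28 (median 0.29) and a deer effect above 0 in 9 of 28 (median -0.06). The difference was below 0 in 24 of 28 (median -0.31), and without HF animals 2 and 3 the cattle median was 0.17. JUN had log2 ratios of -0.59, -0.62, -0.35 and -0.50 in dry HF and -0.11, 0.29, 1.82 and 0.22 in lactating HF. In deer it had -1.34, -1.11, -1.05 and -0.55 and then -1.26, -1.26, -0.83 and -1.21, so only the HF groups do not overlap. ATF3, a stress-induced factor, had a difference of -0.98, but of 0.07 after scaling between arrays. KLF10 had a difference of -0.65, made of a PR effect of 0.79, an HF effect of -0.06 and a deer effect of -0.28.

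The glucocorticoid and steroid response list had a median difference of -0.23, with 21 of 27 genes below 0. BCL6, a transcriptional repressor, had a difference of -1.16 (HF 1.05, PR 0.65, deer -0.31), and IL1R2, the decoy receptor for interleukin 1, of -1.36 (HF 0.85, PR 0.20, deer -0.84). Without deer 2 and 4 at peak lactation the value for IL1R2 was -0.45. FOXO3, a factor of the fasting and stress response, had -0.69. SOD2, the mitochondrial superoxide dismutase that inflammation induces, had -1.26, and -0.83 without deer 4 at peak lactation. NFE2L2, the regulator of antioxidant genes, had -0.65 with all 4 probes below 0, and PRDX5, a peroxiredoxin, had -0.73 with all 3 below 0.

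CPT1A and SLC25A20, of fatty acid oxidation, had effects of opposite sign in PR and deer. CPT1A, which brings long fatty acids into mitochondria as the limiting step of their oxidation, had the smallest unadjusted p of the difference among all listed genes. Its log2 ratios were -0.03, -0.27, -0.24 and 0.52 in the dry deer and -1.26, -0.77, -0.53 and -0.67 in the lactating deer. PR had -1.03, -1.30, -0.64 and -0.85 in the dry period and 0.11, 0.04, 0.41 and 0.82 at peak lactation. HF had -0.64, -0.64, -0.66 and -0.98 and then -0.36, -0.34, -1.50 and -1.09. The deer groups did not overlap, the PR groups did not overlap in the other direction, and the HF groups overlapped. The effects were -0.80 in deer, 1.299 in PR and -0.09 in HF. The difference was -1.41 (SE 0.29, adjusted p = 0.417), and -0.71 against HF alone.

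SLC25A20, the carnitine carrier of the same pathway, had the same pattern of signs, with effects of -0.45 in deer, 0.77 in PR and -0.12 in HF, lower in 4 of 4 deer and higher in 4 of 4 PR. Its difference was -0.77 (adjusted p = 0.4999). Over the list of fatty acid oxidation and PPAR target genes, 21 of 39 had a deer effect above 0 (median 0.02), as did 7399 of all 12776 genes, and 30 of 39 had a PR effect above 0. In the glycolysis and glucose transport list, 20 of 30 genes had a deer effect below 0 (median -0.04) and 22 a cattle effect above 0 (median 0.14), and the difference was below 0 in 24 (median -0.21). The mean change of that list was 0.73, 0.03, -0.15 and -0.07 in PR animals 1 to 4 and -0.06, 0.13, 0.05 and -0.23 in deer 1 to 4, which overlap. Within the slide that held both deer states, 19 of 30 genes were higher in lactation (median 0.04). PGAM1, a glycolytic enzyme, had a difference of -0.42 with all 4 probes below 0, and SLC2A3, a glucose transporter of white cells, of -0.73 with all 6 below 0. PDK1, which holds pyruvate back from mitochondria, went the other way with 0.75, a sign that turned after scaling between arrays (-0.06) and with the Cy5 signal alone (-0.02).

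In the other direction, cell cycle genes were higher at peak lactation in deer and close to their dry level in cattle. Of 40 genes tested, 37 had a deer effect above 0 (median 0.34), against 14 in HF (median -0.03) and 28 in PR (median 0.06). The difference was above 0 for 38 of 40 (median 0.27), and 15 had an unadjusted p under 0.05, all above 0. None passed the adjusted threshold. The mean change of the list was 0.33, 0.32, 0.20 and 0.46 in deer 1 to 4, -0.22 to 0.26 in HF and 0.00260 to 0.14 in PR, so the lowest deer overlapped the highest HF animal. Within the slide that held both deer states 35 of 40 were higher in the 2 lactation arrays than in the 1 dry array, with a median of 0.28, and after scaling between arrays 37 of 40 were.

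TPX2, a spindle protein, had log2 ratios of 0.11, 0.18, 0.13 and -0.06 in the dry deer and 0.55, 0.72, 0.60 and 0.71 in the lactating deer, with no overlap. HF had 0.20, 0.36, 0.13 and 0.40 and then 0.16, 0.29, 0.43 and 0.08, and PR had -0.19, -0.20, -0.07 and -0.30 and then -0.36, -0.25, 0.05 and -0.09. The difference of effects was 0.55 (95% interval 0.31 to 0.80, adjusted p = 0.417), with all 4 probes above 0. MCM4, part of the replicative helicase, had a difference of 0.63 with all 4 tested probes above 0. It ran from -1.06 to -0.51 in the dry deer and from -0.41 to 0.09 in the lactating deer. A further MCM4 probe, not tested here, had a deer value of -0.72 in the authors' deposited table for deer, against 0.64, 0.71 and 0.66 for other MCM4 probes there. The difference for the brightest MCM4 probe was 0.37 after scaling between arrays and 0.27 with the slide as a block. PLK1, a mitotic kinase, had 0.53, and -0.05 after scaling between arrays.

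RNASEH2A, a subunit of the nuclease that removes ribonucleotides from DNA, was higher in 4 of 4 deer and lower in 8 of 8 cattle. Its changes were 0.70, 0.57, 0.0046 and 0.62 in deer, -0.13, -0.15, -0.20 and -0.90 in HF and -0.02, -0.23, -0.09 and -0.41 in PR. The difference was 0.74 (SE 0.19, adjusted p = 0.522), and 0.44 with the slide as a block. POT1, which caps telomeres, had a difference of 0.90 (HF -0.52, PR -0.02, deer 0.63), but of 0.37 after scaling between arrays. A dimmer probe of POT1 had a difference of 0.12. TRPT1, an RNA phosphotransferase, had 0.81, with -1.77, -1.77, -1.66 and -1.83 in the dry deer and -1.37, -0.55, -1.56 and -1.07 in the lactating deer. A dimmer probe of TRPT1 had a difference of 0.07, with effects of 0.09 in deer, -0.07 in HF and 0.10 in PR.

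The other genes of this direction had smaller values. INPP5B, a phosphoinositide phosphatase, had 0.52 (HF -0.14, PR -0.35, deer 0.28). CDYL2, a chromodomain protein, had 0.41, and its deer effect of 0.39 was positive in 4 of 4 deer with no overlap, but its 2 probes disagree in sign. ZSWIM1 had 0.68, EID3 0.58, PEX10, of peroxisome assembly, 0.59, B4GAT1, a glycosyltransferase, 0.47, UBE3B, a ubiquitin ligase, 0.43 and CCDC157 0.33. ELP5, of the elongator complex, had 0.49, which turned to -0.12 after scaling between arrays. ZSWIM1, PEX10, CCDC157 and UBE3B each had 1 probe with a difference below 0.

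B cell genes had a difference above 0 in 19 of 24 (median 0.37), with medians of 0.10 in deer, -0.27 in HF and -0.02 in PR. CR2, the complement receptor of B cells, had 0.44, EBF1, a B lineage factor, 0.61 and BTK, a kinase of the B cell receptor, 0.71. Without deer 2 and 4 at peak lactation 10 of 24 genes had a deer effect above 0 and the median difference was 0.11. In the T cell list the HF effect was below 0 for 27 of 31 genes (median -0.13) and the deer effect for 12 (median 0.04), but for 16 after scaling between arrays and for 19 with Cy5 alone. Gamma delta T cell genes had a PR effect below 0 in 7 of 7, an HF effect in 5 and a deer effect in 4. The brightest probe of WC1.3 had a cattle effect of -0.50 and a deer effect of -0.14. The WC1.3 probe that passed in cattle with the block had -0.71 and 0.06, so the deer sign differs between probes. In the NK and cytotoxic list 16 of 25 genes had a deer effect below 0 (median -0.06) and 20 a cattle effect below 0 (median -0.10). NCR1, an NK cell receptor, had a deer effect of 0.22 and a difference of 0.33. The levels of these marker lists moved with state in the same samples as the neutrophil and monocyte lists, and their part in the other results was not tested.

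Some genes were higher at peak lactation in deer and in both breeds. SOAT1, which esterifies cholesterol for storage, had log2 ratios of -3.02, -3.15, -2.82 and -3.25 in the dry deer and -2.95, -1.67, -2.72 and -2.34 in the lactating deer. HF had -0.51, -0.50, -0.35 and -0.58 and then -0.03, 0.20, 0.72 and -0.25, and PR had -1.15, -0.42, -0.20 and -0.22 and then 0.42, 0.21, -0.07 and 0.03. It was higher in 12 of 12 animals, the HF and PR groups did not overlap, and the dry and lactating deer did. The effects were 0.64 in deer, 0.65 in HF and 0.64 in PR, and the difference was -0.0034 (95% interval -0.61 to 0.60), but the deer effect was -0.55 after scaling between arrays and 0.23 without deer 2 and 4 at peak lactation.

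DPYD, which breaks down pyrimidines, was also higher in 12 of 12 animals, with effects of 0.55 in deer, 0.59 in HF and 0.34 in PR, although scaling turned the deer effect to -0.12. SMPDL3A, a phosphodiesterase of macrophages that liver X receptors induce, had 0.37, 0.47 and 0.37 and was higher in 12 of 12 animals, and its deer effect was 0.11 after scaling. PANK1, which starts the synthesis of coenzyme A, had 0.43, 0.22 and 0.31, was higher in 12 of 12 and was 0.15 in deer after scaling. MRRF, of mitochondrial translation, had 0.27, 0.09 and 0.31. OLR1, a receptor for oxidized lipoprotein, had 0.68, 0.86 and 0.78, ACER3, a ceramidase, 0.50, 0.66 and 0.09, GALK2, a sugar kinase, 0.32, 0.31 and 0.15, IFIT5, an interferon-induced protein, 0.48, 0.46 and 0.33, and CD302, a lectin of phagocytes, 0.53, 0.27 and 0.48. After scaling between arrays the deer effects of these 4 genes other than OLR1 were -0.02, -0.12, -0.04 and -0.11, and that of OLR1 was -0.32.

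THBS1 had the largest cattle effect among the genes named here, 1.25, and a deer effect of 0.92. Another bright probe gave 1.23 and 0.81, but dimmer probes had cattle effects of 0.10 and 0.17 and deer effects of -0.13 and 0.09. For the brightest THBS1 probe the log2 ratios were -3.10, -3.84, -1.90 and -3.89 in the dry deer and -3.12, -1.85, -1.38 and -2.70 in the lactating deer. In HF they ran from -2.08 to -0.44 and then from -0.58 to 0.45, and in PR from -1.10 to -0.06 and then from 0.14 to 0.99. The deer effect turned to -0.51 after scaling and to -1.01 with the slide as a block. These deer effects rise as the deer level falls: across 12776 genes the deer effect correlated with the mean deer level at r = -0.49, against -0.36 in HF and -0.32 in PR, and at 0.18 without deer 2 and 4 at peak lactation. The narrow ratios of those 2 arrays were given above.

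Genes lower in all 3 had small effects. PTH1R, the parathyroid hormone receptor, had -0.47 in deer, -0.27 in HF and -0.25 in PR, from 23 arrays, and PRXL2A, a redox protein, had -0.39, -0.20 and -0.25. PHKG1, a phosphorylase kinase subunit, had -0.25, -0.03 and -0.19, and ATP2A1, a calcium pump of muscle, -0.24, -0.13 and -0.18. OLIG3, XYLT1, FOXB1, COG5, CCNB1IP1 and ZKSCAN2 had deer effects of -0.16 to -0.15 and cattle effects of -0.15 to -0.11. Scaling between arrays turned the deer effects of PTH1R (0.43) and ATP2A1 (0.13), and the scanner's own log ratio that of OLIG3 (0.048).

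Among gene lists, interferon-stimulated genes, which mark the response to viruses, were above 0 in deer for 45 of 55 (median 0.15) and in cattle for 53 of 55 (medians 0.23 in HF and 0.19 in PR), with 31 above 0 in all 3, but only 20 of 55 had a deer effect above 0 after scaling between arrays. The PR median of the list was 0.04 without the dry array of PR animal 1 and 0.01 with array weights, where 29 of 55 had a PR effect above 0 and 26 of 55 a deer effect above 0. Their mean change was 0.48 and 0.49 in deer 2 and 3 and -0.05 and -0.19 in deer 1 and 4. USP18, a brake on interferon signalling, had a deer effect of 0.88 and a cattle effect of 0.15, and its difference of 0.73 turned to -0.55 after scaling. Genes of cholesterol synthesis and uptake were above 0 for 25 of 28 in deer and 22 in cattle, but for 7 of 28 in deer after scaling. SCAP, the sterol sensor, had a difference of 0.81, with -0.58 in HF and 0.41 in deer, and the Cy3 reference itself had a difference of -0.37.

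Genes of mitochondria and protein turnover were above 0 in deer and in PR but not evenly in HF. Of 76 respiratory chain genes, 72 had a deer effect above 0 (median 0.15), 75 a PR effect (median 0.39) and 41 an HF effect (median 0.0062), and 49 had a deer effect above 0 after scaling. The PR changes were 1.05, -0.05, 0.41 and 0.14, and without PR animal 1 in the dry period 64 of 76 had a cattle effect above 0 (median 0.08). Mitochondrial ribosomal proteins were above 0 in deer for 63 of 71 and proteasome subunits for 33 of 38, which became 42 and 31 after scaling. Heat shock and chaperone genes were above 0 in deer for 32 of 38, and for 16 with the slide as a block. Cytosolic ribosomal proteins were above 0 for 73 of 78 in deer and 73 in PR and below 0 for 74 in HF, and after scaling the deer effect was above 0 for 52. Mean changes in PR animal 1 were 0.52 for mitochondrial ribosomal, 0.62 for proteasome, 0.59 for heat shock and 0.67 for cytosolic ribosomal genes. In the other PR animals they ran from -0.03 to 0.26, -0.02 to 0.24, 0.02 to 0.19 and 0.03 to 0.39. RPL23A had a difference of 0.39, with -0.19 in the Cy3 reference itself, and those of RPS2 (0.39) and RPS28 (0.44) turned to -0.33 and -0.56 after scaling. MRPL44 had 0.44.

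**Figure D5:**
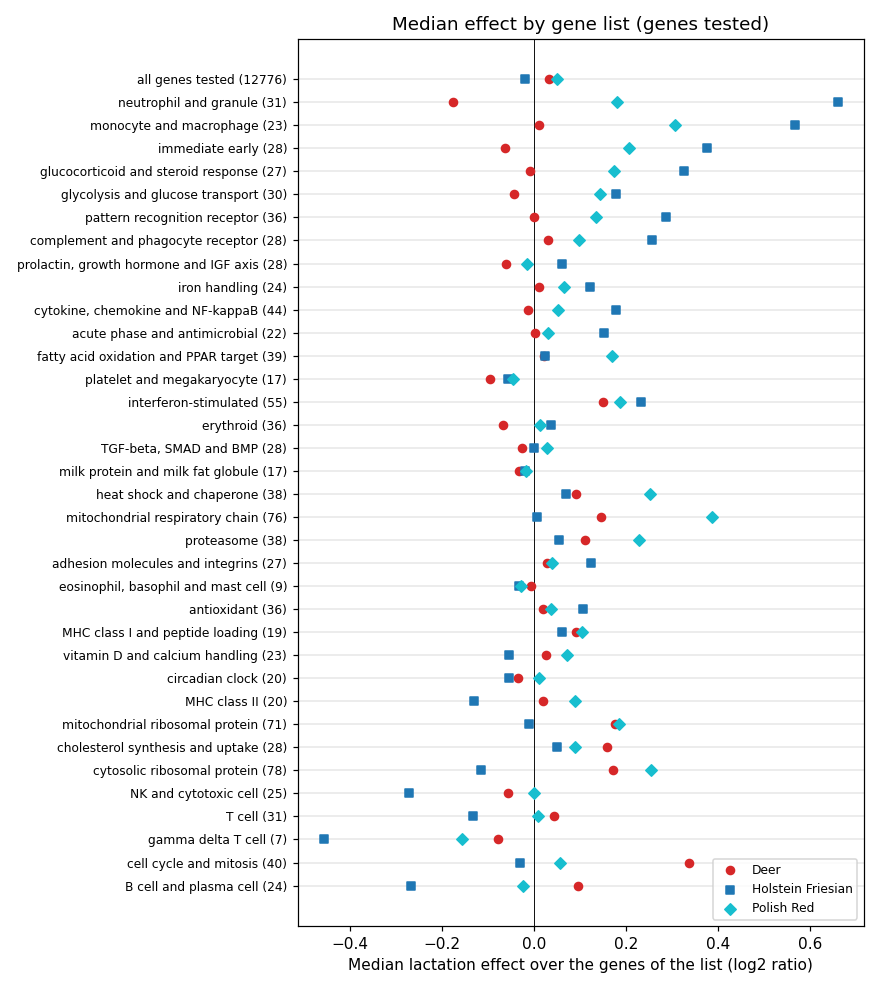
Median lactation effect (log2 ratio) in deer (red circles), HF (blue squares) and PR (cyan diamonds) over the genes tested of each of 35 lists and over all 12776 genes, ordered by the median difference between deer and cattle. Deer lie left of both breeds for neutrophil (-0.18 against 0.66 and 0.18) and monocyte genes and right of both for cell cycle genes (0.34), and the deer medians of interferon-stimulated and cholesterol genes fall below 0 after scaling between arrays.

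The remaining lists bear on milk, hormones and rhythm. Of 17 genes of milk proteins and the milk fat globule, 11 had a deer effect below 0 and 9 a cattle effect below 0. XDH, a protein of the milk fat globule membrane that also makes uric acid, had 0.53 in cattle and 0.01 in deer. GPAT4, which starts triglyceride synthesis, had 0.26 and -0.50, and BTN1A1, butyrophilin, -0.02 and -0.26. In the prolactin, growth hormone and IGF list 18 of 28 had a deer effect below 0, among them IGFBP6, a binding protein of IGF, with -0.23. BHLHE41, a repressor of the clock, had a difference of 1.08 that turned to -0.17 after scaling, and NFIL3, a clock-linked factor, of -1.09. SLC8A1, the sodium-calcium exchanger, had -0.78 with all 5 probes below 0. NFE2, an erythroid and platelet factor, had -0.76. Platelet genes had a deer effect below 0 in 12 of 17 and a cattle effect below 0 in 13. For the MHC class I, MHC class II, adhesion, iron handling, TGF-beta and eosinophil lists, the medians of the difference of effects lay between -0.09 and 0.06.

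The authors' deposited tables give 576 probes that they selected for deer, 437 for HF and 158 for PR. In the authors' deposited table for deer 301 probes were higher and 275 lower at peak lactation. Of the 353 probes of the authors' deposited table that were tested here, 332 had the sign of the limma deer effect. The authors' deposited table for deer shared 10 probes with that for HF (1.74% of the deer and 2.29% of the HF table), 6 with like and 4 with opposite sign, and 9 with that for PR (1.56% and 5.70%), 7 with like sign. In the authors' deposited tables CPT1A had -1.04 in deer and 1.42 in PR, SLC25A20 had -0.53 in deer and 0.76 in PR, CHSY1 had -0.80 in deer and 0.75 in HF, and DPYD had 0.46 in deer and 0.73 in HF. The authors' deposited table for deer held 22 probes of the cell cycle list, 21 of them higher, and none of the neutrophil or monocyte list. It holds only 576 of 43653 probes. Other lists also had none there, among them those of T cells, B cells, the respiratory chain and the proteasome. The absence of neutrophil and monocyte probes is therefore not particular to these lists. These tables were made from the same 24 samples and are not independent of the values above.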

How the data were processed

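Blood RNA of 12 animals in 2 states was hybridised to 24 Agilent 2-colour arrays of cattle probes. Spot intensity and the scanner's log10 ratio are as deposited, from Feature Extraction 10.10.1.1 per the file headers (10.7.3.1 per the submitters' processing notes). The authors' deposited tables of selected probes give log2 differences, and their normalization is not given in the sources used here. From the deposited mean and background intensity, the 1417 control spots were left out after normexp (offset 50), loess was applied per array, and spots of a probe were averaged. Probes well above background on at least 3 of 4 arrays of at least 1 deer and 1 cattle group were tested with limma 3.58.1 (statmod 1.5.0, R 4.3.3) over all 6 groups, with Benjamini-Hochberg adjustment at 0.05, and the steps were tested on simulated data. A gene was read from its brightest probe; 33559 of 43653 probes had a name.

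The genes and lists were chosen with earlier results of these data known. The text names the 12 genes per direction with opposite signs and the smallest p, the 10 per direction with like signs and the largest smaller t, probes past 0.05, and the 3 genes per list with the smallest p; other names are given as chosen after their values were seen. Same-numbered samples are the same animal per the series text. The correlation of their deviations was 0.17 to 0.51 in HF, 0.02 to 0.28 in PR and 0.18 to 0.36 in deer. Alternatives were the animal block, background, normalization, filter, slide, array position, array weights, each channel alone, each breed alone and leaving out each array; leaving out HF animals 2 and 3, deer lactation arrays 2 and 4, and PR dry array 1 with the block was added after seeing the data. Arrays give no depth, and their number limits the precision.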

Additional observations from a re-analysis of the deposited data

Results flagged for a closer look

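Samples were compared with the other 3 of their group, and 23 of 246 groups (9.35%) held a sample that stood apart, where chance gives about 1 in 20. PR animal 1 stood apart most often: its mean change was 0.31 over all genes, 0.77 over monocyte, 0.46 over cytokine, 0.62 over complement, 0.56 over fatty acid oxidation, 0.50 over cholesterol, 0.38 over antioxidant, 0.68 over immediate early and 0.23 over circadian genes. Its dry array had a median Cy5 intensity of 2038, an SD of log2 ratios of 0.47, a spike-in correlation of 0.33 and 703 outlier spots. Of the other arrays, that of HF animal 2 in the dry period had an SD of 0.31 and that of HF animal 1 in the dry period 75 outlier spots. Deer 2 had a mean change of 0.44 over platelet genes, HF animal 1 of -0.40 over erythroid genes and HF animal 2 of -0.30 over cholesterol genes.

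Among single genes, the sample that stood apart was PR animal 1 in the dry period for MLF1 (0.21), HF animal 4 in the dry period for CPT1A (-0.98), PR animal 4 at peak lactation for POT1 (0.47), deer 3 at peak lactation for JUN (-0.83) and HF animal 3 at peak lactation for CHSY1 (0.41).

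RNASEH2A, ORC5 and SCARB1 are listed because all 4 deer moved one way and all 8 cattle the other. Their differences of effects were 0.74, -0.81 and -1.29, and by limma none had an adjusted p under 0.05 (0.522, 0.502 and 0.502). A nearly as bright probe of ORC5 had a deer effect of 0.28.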

How the results depend on the processing

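The difference of effects called 0 of 31436 probes by limma, with 2596 at an unadjusted p under 0.05. It called 2 with the replicate block, 3 with that block and PR dry array 1 left out, 1 each without background subtraction, with array position and against HF alone, 1852 with array weights, and 0 to 10 when single arrays were left out. The deer effect called 2 probes. It called 4 with the replicate block, 5 with that block without PR dry array 1, 5 without background subtraction, 4 with the scanner log ratio, 4346 with array weights, 1 each with normexp offset 16, median centring, no filter, background in at least 1 group, array position and trend with robust moderation, and 0 with scaling between arrays, background in all 6 groups, slide as a fixed block, no moderation, either channel alone, without HF animals 2 and 3 or without deer lactation arrays 2 and 4. Leaving out single arrays gave 0 (without deer 2 at peak lactation) to 39 (without deer 3 at peak lactation). The cattle effect called 1 probe. It called 27 with the replicate block, 44 with that block without PR dry array 1, 11 without background subtraction, 4 with the scanner log ratio, 40 with array weights, 3 without deer lactation arrays 2 and 4, 2 each with normexp offset 16, slide as a fixed block and trend with robust moderation, 0 with median centring, scaling, array position, either channel alone or without HF animals 2 and 3, and 1 to 4 when single arrays were left out. The cause was not tested.

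Of 5270 values for 98 genes under 46 settings, 27 changed sign, most of them after scaling between arrays. Many of these values could not change sign. A filter or the moderation leaves an estimate as it is, and so does the loss of a cattle array for a deer effect. The share of 27 therefore understates how far the signs depend on processing. Scaling between arrays gave differences of -0.12 for ELP5, 0.26 for IVNS1ABP, 0.30 for CLEC7A, 0.067 for ATF3, -0.063 for PDK1, -0.046 for PLK1, -0.33 for RPS2, -0.56 for RPS28, -0.55 for USP18, -0.17 for BHLHE41 and 0.49 for C5AR1. It gave deer effects of -0.12 for DPYD, -0.12 for GALK2, -0.024 for ACER3, -0.55 for SOAT1, -0.32 for OLR1, -0.043 for IFIT5, -0.11 for CD302, 0.43 for PTH1R, 0.13 for ATP2A1 and -0.51 for THBS1. The scanner log ratio gave 0.076 for CNR1 and 0.048 for OLIG3, the slide as a fixed block -1.01 for THBS1, and Cy5 alone -0.023 for PDK1, -0.11 for CD302 and 0.093 for ATP2A1.

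The median differences of the neutrophil, monocyte, immediate early, glycolysis, B cell and cell cycle lists kept their sign under 43 settings. Some of these settings, such as those of moderation, cannot move a median. The ranges were -0.92 to -0.23 for neutrophil and 0.19 to 0.53 for cell cycle genes. No setting moved the median difference of all genes by over 0.1.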
